A study of Homo sapiens with 15 samples.

Results

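The miR-181 family comprised 7 mature miRNAs here, namely hsa-miR-181a-5p, hsa-miR-181a-3p, hsa-miR-181a-2-3p, hsa-miR-181b-5p, hsa-miR-181c-5p, hsa-miR-181c-3p and hsa-miR-181d-5p, written below without the species prefix. They were taken by name from the 1707 mature miRNAs that the files list. All 7 were among the 562 miRNAs that passed the filter on low counts and were tested. No measured value was used to choose them.

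The small RNAs were sequenced from U87-MG, an established human glioblastoma cell line. There were 5 groups with 3 libraries each. Control cells, labelled WT for wild type, were kept for 24 h in normoxia (21% O2) or in hypoxia (1% O2). The knockouts were made with CRISPR/Cas9, of HIF1α (HIF1α-KO), of HIF2α (HIF2α-KO) or of both genes (HIF1α/HIF2α-KO). They were kept for 24 h in hypoxia (1% O2). Whether the controls also received the knockout vector was not given in the sources used here. No knockout group was kept in normoxia, so the effect of oxygen could be compared in control cells only. The assay reads miRNAs, so the loss of HIF1α and HIF2α, the oxygen-regulated subunits of the hypoxia-inducible transcription factors, was not checked in these libraries. Each library averages a whole culture, so fewer cells holding a miRNA and less of it per cell cannot be told apart. Whether the libraries of a group came from separate cultures was not given in the sources used here, so the p-values measure only the spread between these libraries.

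The miR-181 family is conserved among vertebrates and is best known for its abundance in brain and in developing lymphocytes. A miRNA hairpin is cut into a duplex, 1 strand of which, the 5p or the 3p strand, is usually kept in the silencing complex, where bases 2 to 8, the seed, pair with target mRNAs. In glioma, members of the family have been described as tumour suppressors with lower levels than in normal brain.

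The mature sequences are shown because members that differ by few bases are told apart by those bases alone. They are RefSeq entries on GRCh38.p14 and are written 5′ to 3′ with the seed in capitals. The 4 strands of the 5p arm carry 1 common seed.
miR-181a-5p: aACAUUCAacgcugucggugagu
miR-181b-5p: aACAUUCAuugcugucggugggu
miR-181c-5p: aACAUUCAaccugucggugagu
miR-181d-5p: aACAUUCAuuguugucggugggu
The 3 strands of the 3p arm each carry a seed of their own.
miR-181a-3p: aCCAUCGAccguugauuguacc
miR-181a-2-3p: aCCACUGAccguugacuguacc
miR-181c-3p: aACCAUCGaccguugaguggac

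Counted from 1 at the 5′ end, miR-181b-5p and miR-181d-5p differ by the single substitution C12U, with the base of miR-181b-5p first. miR-181a-5p and miR-181b-5p differ by A9U, C10U and A21G. The edit distance between miR-181a-5p and miR-181c-5p is 1 base, and they differ in length. miR-181a-3p and miR-181c-3p have an identical run of 15 bases, accaucgaccguuga, which begins at base 1 of the former and at base 2 of the latter, so that their seeds are the same letters shifted by 1 position. How reads matching more than 1 of these sequences were counted was not given in the sources used here. The seed of the 5p arm is also that of miR-4262, which was not analysed here.

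The family is made from 6 hairpins at 3 loci, each of them intronic in the GENCODE annotation of GRCh38. MIR181A1 (chr1:198859044-198859153) and MIR181B1 (chr1:198858873-198858982) lie on the minus strand in MIR181A1HG, a long noncoding host gene, 61 bases apart. MIR181A2 (chr9:124692442-124692551) and MIR181B2 (chr9:124693710-124693798) lie on the plus strand in MIR181A2HG, on the opposite strand to an intron of NR6A1. MIR181C (chr19:13874699-13874808) and MIR181D (chr19:13874875-13875011) lie on the plus strand within introns of NANOS3, 66 bases apart. miR-181a-5p and miR-181b-5p are each made from 2 hairpins on different chromosomes, so their counts could not be split by locus. miR-181a-3p and miR-181a-2-3p come from MIR181A1 and MIR181A2 and keep those loci apart.

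The libraries held 10360337 to 22496373 counts. Levels are given as CPM, counts per 1000000 library counts, after scaling by trimmed mean of M-values (TMM), with factors of 0.898 to 1.09. The 5 miRNAs listed as abundant in glioblastoma lines summed to 346247 to 495549 CPM, and none was at 0. Summed levels were 4.01 to 50.8 CPM for the 2 endothelial markers, 4.54 to 24.1 CPM for the 6 haematopoietic markers and 37.6 to 118 CPM for the 6 epithelial markers. They were 1.63 to 45.1 CPM for the 3 muscle markers and 3350 to 10637 CPM for the 3 neuronal markers, the last being a list that glial cells also express in part. All endothelial and epithelial markers passed the filter on low counts, as did 3 of 6 haematopoietic, 2 of 3 muscle and 2 of 3 neuronal markers. Of the neuronal markers, 1 was at 0 in every HIF2α-KO library and 1 in every HIF1α/HIF2α-KO library, so their sum does not stand for each of them. The endothelial miR-126 strands split the libraries unevenly, with 14.5 to 51.9 CPM in 9 libraries and 3.901 to 6.95 CPM in the other 6 before TMM scaling, which were control hypoxia 2 and 3, HIF1α-KO 1 and 2, HIF2α-KO 2 and HIF1α/HIF2α-KO 3. Their part in the results was not tested beyond a fit with this split as a covariate and correlations within each set of libraries, given where a result is described.

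Together the 7 members took 0.281% to 0.373% of all counts, with a median of 0.333%, and summed to 2723 to 4097 TMM CPM. miR-181a-5p led the family with 49.7% to 57.8% of its counts and ranked 34 of the 1707 miRNAs by mean level. miR-181b-5p followed with 24.0% to 34.0% and rank 45. These 2 members made up most of the family in every library.

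The other members lay well below these. miR-181a-2-3p had a median of 179 CPM (rank 99), miR-181a-3p of 149 CPM (rank 104), miR-181d-5p of 141 CPM (rank 108) and miR-181c-3p of 103 CPM (rank 125). miR-181c-5p was rare, with 2.38 to 4.38 CPM (rank 347) from 32 to 73 counts per library, the fewest of the 7. Within groups, the SD of log2 levels was 0.12 for miR-181d-5p and 0.13 for miR-181a-5p, below all but 2.85% and 3.91% of the tested miRNAs. It was 0.18 for miR-181c-5p. It was 0.27 for miR-181a-3p and 0.28 for miR-181c-3p, which placed these strands above 58.7% and 60.9% of the tested miRNAs.

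The shares of the strands differed between the family letters. Strand shares are counts of the 3p strands over counts of both strands of the same family letter, which for miR-181a and miR-181b pools 2 hairpins each. For miR-181a the 3p share was 13.4% to 19.4%, for miR-181b 0.306% to 0.814%, and for miR-181d 0% to 0.323%. For miR-181c the order was inverted, with 95.9% to 97.9% of its counts on the 3p strand. This share rests on the counts assigned to both strands. How reads that also match the 15 bases shared by miR-181c-3p and miR-181a-3p were assigned is not known here. The same holds for miR-181c-5p, with 32 to 73 counts per library, which is at an edit distance of 1 from miR-181a-5p, with 19363 to 43009 counts. MIR181C and MIR181D are neighbours, yet their 3p shares were at least 95.9% and at most 0.323%.

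The partner strands behind these shares, which are not members, were low. miR-181b-3p had 22 to 80 counts per library, miR-181b-2-3p 9 to 53 counts and miR-181d-3p 0 to 10 counts. miR-181d-3p did not pass the filter on low counts and was not tested.

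The family's levels in the 5 groups were close to each other. The highest group mean exceeded the lowest by 1.15-fold for miR-181a-2-3p, 1.21-fold for miR-181b-5p, 1.30-fold for miR-181c-5p, 1.32-fold for miR-181a-5p, 1.40-fold for miR-181a-3p, 1.41-fold for miR-181d-5p and 1.42-fold for miR-181c-3p. The median of this fold over all 562 tested miRNAs, whatever their level, was 1.60. The members were not compared with miRNAs of similar abundance alone. After TMM scaling, HIF2α-KO cells had the highest mean of 6 members, and miR-181a-2-3p, the exception, was highest in control cells in hypoxia. For miR-181a-5p and miR-181b-5p this place depended on the scaling. With total counts, the log2 fold change of miR-181a-5p was -0.040 in HIF2α-KO against hypoxic control and -0.057 against HIF1α-KO. That of miR-181b-5p was -0.0050 in HIF2α-KO against HIF1α-KO.

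When groups were ordered by mean, the libraries of neighbouring groups overlapped for 6 of the 7 members at every step. For miR-181a-5p the order was HIF2α-KO at 1981 CPM, normoxic control at 1863 CPM, hypoxic control at 1848 CPM, HIF1α-KO at 1816 CPM and HIF1α/HIF2α-KO at 1500 CPM. Only the last step separated neighbours without overlap, and between those groups, HIF1α/HIF2α-KO and HIF1α-KO, 21.4% of all tested miRNAs separated.

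A test for any difference among the 5 groups (edgeR quasi-likelihood test, all 15 libraries, Benjamini-Hochberg adjustment over the 562 tested miRNAs) called 0 of 7 members at an adjusted p under 0.05, where 6.23% of all tested miRNAs were called. At an unadjusted p under 0.05 there were 2 of 7 members, miR-181d-5p (adjusted p = 0.1002) and miR-181a-5p (adjusted p = 0.188), where 26.5% of all tested miRNAs passed. With DESeq2 in place of edgeR, 1 of 7 members, miR-181d-5p, passed this test (adjusted p = 0.0421), where 14.4% of all tested miRNAs did.

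The first comparison asked how oxygen moved the family in control cells. Differences are given as log2 fold changes, with SE, from the same edgeR fit. Between hypoxia and normoxia 0 of 7 members were called, and 0% of all tested miRNAs were. No member had an unadjusted p under 0.05, against 6.23% of all tested miRNAs. The members' log2 fold changes ran from -0.19 to 0.20 with a median of 0.07, beside a median of 0.01 over all tested miRNAs.

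miR-181b-5p, the second most abundant member, had 930, 971 and 891 CPM in normoxia and 825, 787 and 839 CPM in hypoxia. The hypoxic libraries all lay below the normoxic ones, a separation seen for 1 of 7 members and for 17.8% of all tested miRNAs. Its log2 fold change was -0.19 (SE 0.13, adjusted p = 0.791), and the 95% confidence interval ran from 0.723-fold to 1.07-fold. miR-181a-5p had 1657, 1884 and 2047 CPM in normoxia and 1961, 1859 and 1725 CPM in hypoxia, with overlapping groups and an interval from 0.831-fold to 1.18-fold. Across all 7 members the intervals lay between 0.723-fold and 1.60-fold.

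The next comparisons asked what the loss of each HIF subunit did in hypoxia. They share the 3 hypoxic control libraries, so they are not independent of each other. In HIF1α-KO cells 0 of 7 members were called, where 1.25% of all tested miRNAs were, and none had an unadjusted p under 0.05, where 11.9% did. Log2 fold changes ran from -0.18 to 0.10 with a median of -0.05, which was also the median over all tested miRNAs. No member's libraries separated from those of the controls, where 21.5% of all tested miRNAs separated.

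miR-181a-5p had 1746, 1791 and 1913 CPM in HIF1α-KO cells, all inside the range of the hypoxic controls. Its log2 fold change was -0.03 (SE 0.12), with an interval from 0.823-fold to 1.17-fold. The widest interval was that of miR-181c-5p, from 0.634-fold to 1.22-fold.

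In HIF2α-KO cells 0 of 7 members were called, and 0% of all tested miRNAs were. No member passed an unadjusted p under 0.05, where 15.3% of all tested miRNAs did. The log2 fold change was above 0 for 6 of 7 members, with a median of 0.27 beside -0.01 over all tested miRNAs, although that of miR-181a-5p was -0.040 when libraries were scaled to total counts. No member's libraries separated from the controls, where 16.4% of all tested miRNAs separated.

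miR-181d-5p had 126.2, 157 and 159 CPM in hypoxic controls and 188, 191 and 154 CPM in HIF2α-KO cells, with HIF2α-KO library 3 inside the control range. Its log2 fold change was 0.27 (SE 0.13, adjusted p = 0.338). miR-181b-5p had 1103, 1079 and 780 CPM in HIF2α-KO cells and a log2 fold change of 0.27 (SE 0.13, adjusted p = 0.338). HIF2α-KO library 3 was below every hypoxic control for this member, while the other 2 libraries were above them.

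Of the 3p strands, 2 were uneven among the HIF2α-KO libraries. miR-181a-3p had 149, 237 and 180 CPM there and 180, 136 and 146 CPM in hypoxic controls. miR-181c-3p had 106, 170 and 117 CPM and 122, 103 and 102 CPM in the same groups. HIF2α-KO library 2 held the highest level of both strands among all 15 libraries. The intervals reached 1.69-fold for miR-181a-3p and 1.67-fold for miR-181c-3p.

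In HIF1α/HIF2α-KO cells 0 of 7 members were called against hypoxic controls, where 5.87% of all tested miRNAs were. At an unadjusted p under 0.05 there was 1 of 7, miR-181a-5p, where 24.4% of all tested miRNAs passed. The members' median log2 fold change was -0.20 beside -0.02 over all tested miRNAs, and 6 of 7 were below 0.

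miR-181a-5p had 1961, 1859 and 1725 CPM in hypoxic controls and 1352, 1467 and 1682 CPM in HIF1α/HIF2α-KO cells. Each double-knockout library lay below each control, as it did for 1 of 7 members and, in either direction, for 30.4% of all tested miRNAs. The log2 fold change was -0.30 (SE 0.12, adjusted p = 0.128), with an interval from 0.680-fold to 0.969-fold. It was -0.28 (adjusted p = 0.159) with the miR-126 split as a covariate. Over the other settings tried, the adjusted p lay between 0.0933 and 0.727.

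The other members of the 5p arm did not follow a single direction. miR-181b-5p, which is made from the same loci as miR-181a-5p, had 822, 993 and 894 CPM in HIF1α/HIF2α-KO cells and a log2 fold change of 0.14 (SE 0.13, adjusted p = 0.586). miR-181d-5p had 124, 129 and 126.5 CPM and a log2 fold change of -0.22 (SE 0.13, adjusted p = 0.342). Its 3 double-knockout values lay closer together than those of any other group. Of the tested partner strands, miR-181b-3p had 2.9, 2.7 and 2.9 CPM in hypoxic controls, from 31 to 62 counts. In HIF1α/HIF2α-KO cells it had 5.0, 4.9 and 3.5 CPM, from 43 to 80 counts. Its log2 fold change was 0.68 (SE 0.26, adjusted p = 0.123). That of miR-181b-2-3p was -0.14 (SE 0.30, adjusted p = 0.829), so the tested partner strands did not share a direction.

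**Figure D1:**
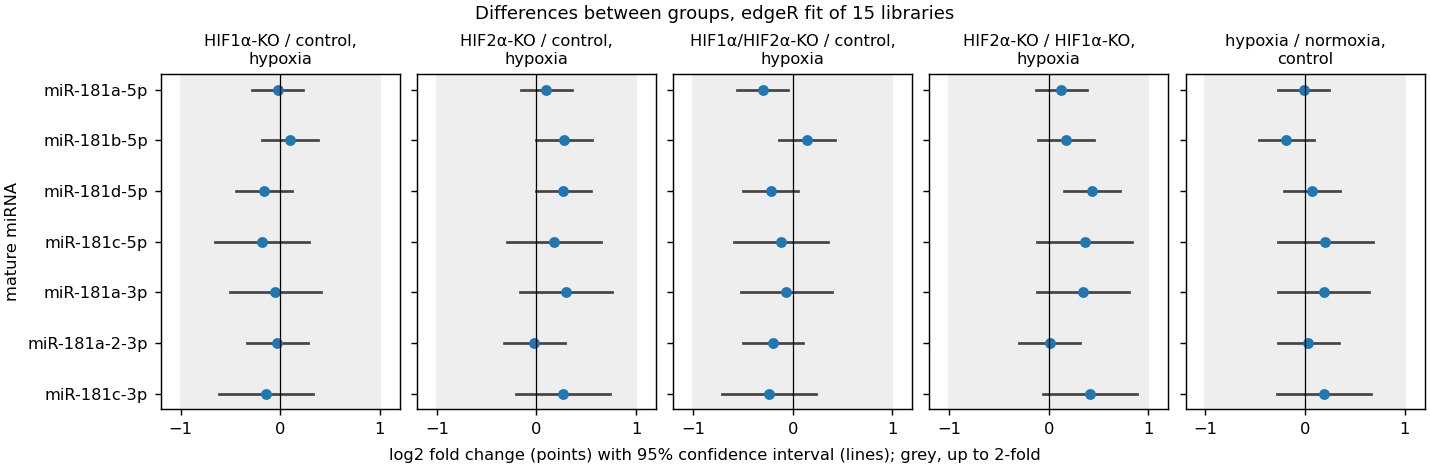
Log2 fold changes (points) with 95% confidence intervals (lines) of the 7 members in 5 comparisons, from the edgeR fit of 15 libraries; the grey band marks changes of up to 2-fold. Every interval lies inside the band, and those of miR-181a-5p in the double knockout and of miR-181d-5p between the single knockouts leave out 0 before adjustment.

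Between the single knockouts, HIF2α-KO against HIF1α-KO, 0 of 7 members were called, where 1.07% of all tested miRNAs were. The log2 fold change was above 0 for all 7 members, with a range of 0.0087 to 0.43 and a median of 0.34 beside 0.05 over all tested miRNAs, but that of miR-181a-2-3p, the lowest, was below 0 with DESeq2 size factors and with total counts. At an unadjusted p under 0.05 there was 1 of 7, where 17.4% of all tested miRNAs passed.

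That member was miR-181d-5p, with 141, 125 and 128 CPM in HIF1α-KO cells and 188, 191 and 154 CPM in HIF2α-KO cells. The 2 groups did not overlap for this member, 1 of 7, where 20.5% of all tested miRNAs separated. The log2 fold change was 0.43 (SE 0.13, adjusted p = 0.101), with an interval from 1.11-fold to 1.64-fold. It was 0.47 (adjusted p = 0.0993) with the miR-126 split as a covariate and 0.25 (adjusted p = 0.341) when libraries were scaled to total counts. The scaling matters for these groups, since total-count scaling moved the median of all tested miRNAs by -0.18 in this comparison, by -0.14 in HIF2α-KO against control, by 0.16 in the interaction described next and by 0.20 in HIF1α/HIF2α-KO against HIF2α-KO. Under it the log2 fold changes of miR-181a-5p, miR-181a-2-3p and miR-181b-5p here were below 0.

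Whether the double knockout differed from the sum of the single knockouts was tested as an interaction, the log2 difference that remains after both single effects are added. 0 of 7 members were called, and 0% of all tested miRNAs were. At an unadjusted p under 0.05 there was 1 of 7, where 10.5% of all tested miRNAs passed. This was again miR-181a-5p, with -0.38 (SE 0.17, adjusted p = 0.439). The point estimates of all 7 members were below 0, from -0.38 to -0.11, and under total-count scaling those of miR-181a-2-3p and miR-181c-5p were above 0.

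The double knockout was also compared with each single knockout. These comparisons were added after the data were seen, and they share the HIF1α/HIF2α-KO libraries. Against HIF1α-KO 0 of 7 members were called, where 1.42% of all tested miRNAs were, and against HIF2α-KO 0 of 7, where 1.78% were. At an unadjusted p under 0.05 there were 1 of 7 and 3 of 7 members, where 14.9% and 19.9% of all tested miRNAs passed.

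miR-181a-5p, with 1352, 1467 and 1682 CPM in HIF1α/HIF2α-KO cells, lay below the 1746, 1791 and 1913 CPM of HIF1α-KO cells and the 1862, 2232 and 1850 CPM of HIF2α-KO cells without overlap. Its log2 fold change was -0.28 (SE 0.12, adjusted p = 0.290) against HIF1α-KO and -0.40 (SE 0.12, adjusted p = 0.0869) against HIF2α-KO. miR-181d-5p lay below HIF2α-KO cells by -0.49 (SE 0.13, adjusted p = 0.0790), again without overlap, and miR-181c-3p by -0.50 (SE 0.22, adjusted p = 0.215) with overlap. Groups did not overlap for 2 of 7 members in each comparison, where 21.4% and 20.5% of all tested miRNAs separated. With DESeq2 the difference of miR-181d-5p against HIF2α-KO passed (adjusted p = 0.0221), as 1 of 7 members and 3.38% of all tested miRNAs, and with total counts it was -0.30 (adjusted p = 0.240).

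Ratios of 2 members within a library do not depend on scaling. The ratio of miR-181a-5p to miR-181b-5p counts was 1.78, 1.94 and 2.30 in normoxic controls in order of size, 2.06, 2.36 and 2.38 in hypoxic controls, 1.93, 2.11 and 2.21 in HIF1α-KO cells and 1.69, 2.07 and 2.37 in HIF2α-KO cells. It was 1.48, 1.65 and 1.88 in HIF1α/HIF2α-KO cells, each below every hypoxic control. miR-181a-5p was the more abundant of the 2 in all 15 libraries.

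The log2 ratio was 0.73 ± 0.17 (SD, n = 3) in HIF1α/HIF2α-KO cells and 1.18 ± 0.12 (SD, n = 3) in hypoxic controls, a difference of -0.44 (SE 0.12). By exact permutation (two-sided) p was 0.1, which is the lowest value available to groups of 3, and 1.0 after adjustment over the 15 ratio tests, so the design could not reach 0.05. Leaving out 1 library at a time moved the difference between -0.54 and -0.36. In the added comparison with HIF1α-KO cells the log2 ratio was lower in HIF1α/HIF2α-KO cells by a difference of -0.32 (SE 0.12), also without overlap (exact permutation p = 0.1, adjusted p = 0.6 over 6 added tests). Against HIF2α-KO cells the difference was -0.29 (SE 0.17) and the groups overlapped (exact permutation p = 0.2, adjusted p = 0.6).

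The ratio of miR-181a-3p to miR-181a-2-3p compares the counts assigned to the chr1 and chr9 copies of the miR-181a hairpin. How reads matching the 15 bases that miR-181a-3p shares with miR-181c-3p, from chr19, were assigned is not known here. It ran from 0.623 to 1.29 with a median of 0.856, and 3 libraries, HIF2α-KO 2 and 3 and HIF1α/HIF2α-KO 3, held more of the chr1 strand. The log2 ratio was 0.04 ± 0.40 (SD, n = 3) in HIF2α-KO cells and -0.26 ± 0.19 (SD, n = 3) in hypoxic controls (exact permutation p = 0.3, adjusted p = 1.0). The ratio of miR-181c-5p to miR-181c-3p ran from 0.0211 to 0.0432, and none of its 5 differences exceeded the spread between libraries, with exact permutation p between 0.7 and 1.0.

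Across the 15 libraries, 21 pairs of members were compared on log2(CPM + 1). The closest pair was miR-181a-3p, from chr1, and miR-181c-3p, from chr19, with Pearson's r = 0.948 and Spearman's rho = 0.896 (permutation p = 1e-05, the smallest the permutations can give, and 2e-05, or 0.00021 and 0.00042 after adjustment over the 21 pairs). Without the 2 libraries farthest from the median r was 0.877, among the 9 libraries with more miR-126 it was 0.962 and among the 6 with less it was 0.929. The deviations from group means gave r = 0.961, so the relation was also present inside the groups. Among the other 561 tested miRNAs, miR-181c-3p had the highest r to miR-181a-3p, followed by miR-4645-3p with 0.848.

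The ratio of the counts of these 2 strands ran from 1.31 to 1.63 with a median of 1.46, while each strand varied 2.19-fold and 2.49-fold between libraries. It was 1.56, 1.58 and 1.62 in HIF1α/HIF2α-KO cells, each above the 1.47, 1.31 and 1.42 of hypoxic controls. The HIF1α/HIF2α-KO libraries also lay above normoxic control (1.46, 1.35 and 1.44) and HIF2α-KO (1.40, 1.39 and 1.54) and overlapped HIF1α-KO (1.63, 1.53 and 1.40). These differences were not tested. Both strands were well counted, with at least 1405 and 902 counts per library. They have the 15-base run shown above in common, and the part of this run in the relation was not tested.

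Pairs from 1 hairpin or 1 locus had lower r than this pair. miR-181c-5p and miR-181c-3p gave r = 0.452 (rho = 0.329, permutation p adjusted over 21 pairs 0.187 and 0.502), with the 5p strand at few counts. miR-181a-5p gave r = 0.578 with miR-181a-3p (rho = 0.468, permutation p adjusted over 21 pairs 0.109 and 0.342) and r = 0.592 with miR-181a-2-3p (rho = 0.771, permutation p adjusted over 21 pairs 0.107 and 0.0112). The neighbours miR-181c-5p and miR-181d-5p gave r = 0.596 (rho = 0.529, permutation p adjusted over 21 pairs 0.107 and 0.234), and miR-181a-5p and miR-181b-5p r = 0.214 (rho = 0.146, permutation p adjusted over 21 pairs 0.520 and 0.710). The 3p strands of the chr1 and chr9 copies, miR-181a-3p and miR-181a-2-3p, gave r = 0.314 (rho = 0.121, permutation p adjusted over 21 pairs 0.382 and 0.710). Of the 21 pairs, 1 more passed on both measures, miR-181a-5p and miR-181c-3p with r = 0.722 and rho = 0.718 (permutation p adjusted over 21 pairs 0.0388 and 0.0252). Its r was 0.810 without the 2 farthest libraries, and 0.668 and 0.853 among the 9 and 6 libraries.

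Of all tested miRNAs, those most like miR-181a-5p over the 15 libraries were miR-2277-5p (r = 0.893, and 0.783 without the 2 farthest libraries), miR-598-3p (r = 0.806, and 0.453) and miR-874-3p (r = 0.805, and 0.621). miR-2277-5p had group means of 29.6 CPM in hypoxic controls and 13.5 CPM in HIF1α/HIF2α-KO cells, and miR-874-3p of 192 and 156 CPM. The relation to miR-598-3p rested in part on the 2 libraries left out.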

How the data were processed

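The deposited files held raw counts per mature miRNA, 1 file per library, which the authors made by small RNA sequencing. Their processing notes name HISAT2, StringTie and DESeq2, without versions; the genome build and counting rule were not given in the sources used here. The authors' further limma quantile normalisation was not in the deposited counts.

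Counts were scaled by TMM, filtered with filterByExpr and fitted with edgeR 4.0.16 (glmQLFit, glmQLFTest) in R 4.3.3, with 1 model over the 15 libraries and 5 groups. A call is an adjusted p under 0.05 over 562 miRNAs. Ratios (0.5 counts added) used two-sided exact permutation tests, and correlations 100000 permutations. The script was tested on simulated data with 200 changed miRNAs. Alternatives included DESeq2 1.42.0 and limma 3.58.1. No pair of replicates agreed within sampling noise.

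Members were taken by name without use of a measured value, but earlier results of these data were known when members and lists were chosen. The text names the 7 members, their partner strands, miRNAs of the same seed and the 3 miRNAs most like miR-181a-5p; miR-4645-3p was added after its value was seen.

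Whether equal replicate numbers pair the libraries was checked by correlating deviations from group means. HIF2α-KO against hypoxic control gave r = 0.52, 0.19 and 0.12, and HIF1α-KO against hypoxic control gave -0.59, 0.65 and -0.66. Libraries of unequal replicate number were not correlated as a reference, so these values cannot show a pairing. No pairing was stated in the sources used here. The other comparisons held pairs under 0.1.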

Additional observations from a re-analysis of the deposited data

How the results depend on the processing

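No member was called in any comparison under any alternative run, with 1 exception: DESeq2 called 1 member, miR-181d-5p, among the 5 groups and 1, the same miRNA, in HIF1α/HIF2α-KO against HIF2α-KO, where it called 81 and 19 of all 562 tested miRNAs (14.4% and 3.38%) and edgeR 35 and 10. miR-181c-5p has the fewest counts, and 3 libraries per group limit every ratio test. Of 504 log2 fold changes under other settings, 32 changed sign and of 378 without a replicate, 34 did; the cause was not tested.

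Members changed sign as follows. DESeq2 gave -0.0017 and its size factors -0.0020 for miR-181a-2-3p in HIF2α-KO against HIF1α-KO. The minimum of 10 counts gave -0.020 there and 0.020 for miR-181a-5p in hypoxia against normoxia. Quantile normalisation gave 0.011 (miR-181c-3p, HIF1α-KO against control), 0.029 (miR-181a-5p, hypoxia against normoxia), and -0.020 and -0.060 (miR-181b-5p and miR-181c-5p, HIF1α/HIF2α-KO against HIF1α-KO). The miR-126 covariate gave -0.0016 (miR-181a-2-3p, HIF2α-KO against HIF1α-KO), -0.024 (miR-181d-5p, hypoxia against normoxia) and 0.013 (miR-181a-3p, HIF1α/HIF2α-KO against HIF1α-KO). Without a filter, HIF1α-KO against control gave 0.022, 0.0045 and 0.016 (miR-181a-5p, miR-181a-3p and miR-181a-2-3p), HIF2α-KO against HIF1α-KO -0.082 (miR-181a-2-3p) and hypoxia against normoxia 0.0095 (miR-181a-5p). With only the libraries compared, they were 0.035, 0.011 and 0.030 for the same 3 members in HIF1α-KO against control, -0.047 for miR-181a-2-3p in HIF2α-KO against HIF1α-KO and 0.0054 for miR-181a-3p in HIF1α/HIF2α-KO against HIF1α-KO. Total counts gave 0.018 and 0.013 (miR-181a-5p and miR-181a-2-3p, HIF1α-KO against control), -0.040 (miR-181a-5p, HIF2α-KO against control), -0.057, -0.17 and -0.0050 (miR-181a-5p, miR-181a-2-3p and miR-181b-5p, HIF2α-KO against HIF1α-KO), 0.039 (miR-181a-5p, hypoxia against normoxia), 0.017 and 0.068 (miR-181a-2-3p and miR-181b-5p, HIF1α/HIF2α-KO against HIF2α-KO), and 0.0045 and 0.040 (miR-181a-2-3p and miR-181c-5p, interaction).

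Leaving out 1 library at a time, log2 fold changes spanned 0 for HIF1α-KO against control (miR-181a-5p -0.059 to 0.049, miR-181a-3p -0.10 to 0.11, miR-181a-2-3p -0.051 to 0.034), HIF2α-KO against control (miR-181a-5p -0.016 to 0.14, miR-181a-2-3p -0.10 to 0.015), HIF1α/HIF2α-KO against control (miR-181a-3p -0.22 to 0.15, miR-181c-5p -0.27 to 0.011), HIF2α-KO against HIF1α-KO (miR-181a-5p -0.020 to 0.13, miR-181a-2-3p -0.10 to 0.0013), hypoxia against normoxia (miR-181a-5p -0.086 to 0.067, miR-181a-2-3p -0.10 to 0.12) and HIF1α/HIF2α-KO against HIF1α-KO (miR-181a-3p -0.20 to 0.19, miR-181b-5p -0.0076 to 0.091, miR-181c-5p -0.11 to 0.17, miR-181c-3p -0.26 to 0.11). Log2 ratios spanned 0 for miR-181a-3p over miR-181a-2-3p (HIF1α-KO against control -0.12 to 0.070, HIF1α/HIF2α-KO against control -0.051 to 0.27, HIF1α/HIF2α-KO against HIF1α-KO -0.038 to 0.28), for miR-181c-5p over miR-181c-3p (HIF1α-KO against control -0.21 to 0.10, HIF2α-KO against control -0.27 to 0.020, HIF1α/HIF2α-KO against control -0.045 to 0.31, HIF2α-KO against HIF1α-KO -0.23 to 0.13, hypoxia against normoxia -0.27 to 0.16, HIF1α/HIF2α-KO against HIF1α-KO -0.013 to 0.35) and for miR-181a-5p over miR-181b-5p (HIF2α-KO against HIF1α-KO -0.15 to 0.092).

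With the replicate number as a block, 0 members were called in every comparison, and all tested miRNAs called went from 6 to 3 in HIF2α-KO against HIF1α-KO and from 35 to 23 among the 5 groups. miR-181a-5p in HIF1α/HIF2α-KO against control was then at -0.31 (edgeR adjusted p = 0.154). For the ratio of miR-181a-5p to miR-181b-5p, pairing cannot move the difference of -0.44, and its exact permutation p of 0.25 is the lowest that 3 pairs can give.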
